A study of Mus musculus with 6 samples.

Results

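Heat shock proteins and the chaperones that work with them were followed in mouse mammary cells after deletion of Sox9, a transcription factor of the ER-negative (estrogen receptor negative) luminal lineage. The genes were taken by their annotated symbols, namely every symbol that starts with Hspa, Hspb, Hspd, Hspe, Hsph, Hsp90 or Dnaj, together with Bag1 to Bag6, Cct2 to Cct8 and Hsf1, with Hspa5 left out. The rule uses no measured value. It gave 82 genes of 19505 with a symbol on the array, each with 1 probe set. They were 9 HSP70 genes, 3 HSP110 genes, 2 HSP90 genes, the genes of HSP60 and HSP10, 6 BAG genes and 7 CCT chaperonin genes. A further 43 were J-protein genes (3 DNAJA, 12 DNAJB and 28 DNAJC). Another 8 genes were listed as small heat shock protein genes by their Hspb symbols, which for Hspb11 need not mean membership of that family. The last were Hspbp1 and Hspbap1, which the Hspb prefix takes in although they encode no small heat shock protein. Hsf1, Hspa8, Hsp90ab1, Dnaja1 and Cct6a carried no named probe set in the annotation used and were not analysed here. Not all of the 82 are cytosolic, because 10 were listed as genes of the endoplasmic reticulum (ER, here and in what follows where it stands alone) and 10 as mitochondrial genes.

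RNA was measured on 6 Affymetrix Clariom S Pico arrays, 3 from Sox9 KO mice and 3 from WT mice, each array from the sorted cells of its own animal. The Sox9 KO mice carried MMTV-iCre and Sox9 fl/fl (called Sox9-cKO by the study), and the WT mice carried Sox9 fl/fl without Cre, so that both groups held the floxed alleles. All were females of 8 to 12 weeks in diestrus on a mixed C57BL/6J and FVB/NJ background, and the ER-negative luminal sort kept EpCAM-high, CD49f-low cells that were negative for Sca1 and for blood lineage markers. The Sox9 KO cells were in addition gated on ECFP, a reporter that Cre switches on, as the MMTV promoter is active in only part of the mammary epithelium, so the effects of genotype, of Cre and of the ECFP gate cannot be told apart.

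Chaperones bind unfolded or half-folded proteins and keep them from clumping until they reach their final shape. HSP70 does this in rounds driven by ATP, in which J-proteins hand over the client and start ATP hydrolysis, and exchange factors such as the BAG and HSP110 proteins release it. HSP90 finishes the folding of kinases and steroid receptors, the CCT ring folds actin and tubulin, HSP60 with its lid HSP10 works inside mitochondria, and small heat shock proteins hold unfolded proteins without ATP. Many of these genes are switched on within minutes of heat or other protein-damaging stress, when heat shock factor HSF1 binds heat shock elements, inverted repeats of the letters GAA and TTC in promoters. The inducible set is therefore a common readout of stress in cells. By the study's methods, the glands were digested with collagenase, trypsin and dispase before sorting. The part of this handling in the signals was not tested.

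The promoters of the genes on which the comparisons turn were read from RefSeq (GRCm38.p6). Windows of 300 bases, 250 before and 50 after the start of transcription, were at hand for 68 of the 82 genes and not for the other 14. They were searched for a heat shock element of 3 units, either GAA, 2 bases of any kind, TTC, 2 bases of any kind and GAA, or its reverse complement with TTC, GAA and TTC, on both strands and counted once per promoter when matches overlapped. It was found in 4 of the 68 genes (5.88%), Hspd1, Hspe1, Hsph1 and Dnajb6, against 179 of 27025 genes in the whole table (0.662%). The match lay 46 or 127 bases before the start of Dnajb6, depending on which of its starts was used, and 36 or 15 bases after the start of Hsph1. Hspd1 and Hspe1, the HSP60 and HSP10 genes, are read in opposite directions from a shared stretch, and 215 of the 250 bases before each start were common to both. This stretch is shown as the 250 bases before the start of Hspe1 (chr1:55087898-55088147, plus strand), with the 18 bases of 2 overlapping matches in capitals, the first of them beginning 89 bases before the start.
Hspe1: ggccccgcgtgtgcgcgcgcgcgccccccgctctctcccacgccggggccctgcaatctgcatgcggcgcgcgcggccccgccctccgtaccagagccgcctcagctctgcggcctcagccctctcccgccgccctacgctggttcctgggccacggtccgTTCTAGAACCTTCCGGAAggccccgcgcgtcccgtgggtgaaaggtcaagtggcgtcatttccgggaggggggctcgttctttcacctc
The promoters of Hspa1a (chr17:34972157-34972406, minus strand) and Hspa1b (chr17:34959239-34959488, minus strand), the 2 stress-inducible HSP70 genes, are shown because the genes are near-identical copies and their probe sets can share RNA. They differed at 3 of 250 bases (98.8% identity), and these bases are in capitals.
Hspa1a: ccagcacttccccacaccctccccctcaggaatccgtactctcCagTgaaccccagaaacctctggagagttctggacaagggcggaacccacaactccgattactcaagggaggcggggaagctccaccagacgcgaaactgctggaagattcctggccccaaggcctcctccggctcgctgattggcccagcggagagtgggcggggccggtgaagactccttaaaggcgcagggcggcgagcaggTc
Hspa1b: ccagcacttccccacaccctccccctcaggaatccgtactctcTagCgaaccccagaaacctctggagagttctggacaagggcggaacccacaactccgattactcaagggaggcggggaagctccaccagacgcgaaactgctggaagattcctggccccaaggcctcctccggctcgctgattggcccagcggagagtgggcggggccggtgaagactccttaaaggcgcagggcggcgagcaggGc
The promoter of Hspb8 (chr5:116422865-116423114, minus strand) is shown because Hspb8 had the smallest p-value of the 82 genes, and it carries no capitals because the motif was not matched.
Hspb8: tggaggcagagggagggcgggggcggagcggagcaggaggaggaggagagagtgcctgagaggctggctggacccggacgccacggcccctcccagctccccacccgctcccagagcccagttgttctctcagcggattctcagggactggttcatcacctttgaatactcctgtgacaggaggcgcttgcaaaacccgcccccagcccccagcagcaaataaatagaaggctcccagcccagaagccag
The absence of a match in Hspa1a, Hspa1b, Hspb8 or another gene says only that these letters were not in this window.

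Sox9 itself marked the genotypes, with log2 signals of 6.73, 7.84 and 7.51 in Sox9 KO against 11.60, 11.54 and 11.47 in WT (difference -4.18, adjusted p = 0.00867, limma with Benjamini-Hochberg adjustment). Of 22206 probe sets tested across the array, 2 passed the adjusted threshold of 0.05 (0.00901%) and 2057 had an unadjusted p under 0.05 (9.26%), of which 950 were higher (4.28%) and 1107 lower (4.99%) in Sox9 KO. With each array centred on its median these were 714 higher and 1414 lower. Sox9 KO replicate 1 stood apart on the first principal component, which held 41.5% of the variance, at -57.4 against scores between -15.1 and 27.1 on the other 5 arrays. A signal was called above background where it passed the 95th percentile of the 5222 negative control probe sets, which lay between 7.75 and 8.15 on the Sox9 KO arrays and between 7.87 and 8.58 on the WT arrays. Of the luminal markers all 8 were above it on every array, and of the ER-negative luminal markers 8 of 10, while all 7 immune and all 5 endothelial markers lay below it on every array. Most luminal identity markers had lower signals in Sox9 KO, namely 8 of 10 ER-negative luminal markers (median difference -0.84, 4 at an unadjusted p under 0.05) and 6 of 8 luminal markers (median -0.34, 4 at that p), and the part of this in the chaperone values was not tested. WT replicate 3 stood apart in 5 ER-positive luminal markers, whose mean log2 signal was 6.27, 6.58 and 6.35 in Sox9 KO against 6.59, 6.48 and 8.53 in WT. The adipocyte gene Fabp4 varied within both groups, with 7.21, 8.15 and 10.11 in Sox9 KO against 10.91, 7.47 and 9.20 in WT. In RNA from sorted cells in bulk, fewer cells of a type and less RNA per cell cannot be told apart.

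None of the 82 heat shock and chaperone genes passed the adjusted threshold in limma, where the smallest adjusted p was 0.245, and their differences were centred near 0. The median difference over the 82 genes was 0.01 on the log2 scale, as it was over all probe sets (0.01), with 40 genes lower and 42 higher in Sox9 KO. With each array centred on its median, 49 were lower and 33 higher, and the medians of the 82 genes and of all probe sets were both -0.035. The median of their deviations from the WT mean was -0.055, 0.03 and 0.095 on the Sox9 KO arrays against -0.08, 0.03 and 0.05 on the WT arrays, so the groups overlapped. At an unadjusted p under 0.05 there were 3 genes (3.66%), Hspb8 and Hspb2 higher and Dnajc13 lower, a share under the 9.26% of all probe sets. The count rested on single arrays, as it was 1 when WT replicate 2 was left out, 8 when replicate 2 of Sox9 KO was and 7 when replicate 3 of either genotype was. The 2 groups did not overlap for 9 of the 82 genes (11%), against 14.1% of all probe sets. Of these, Cct2, Dnajb14, Dnajc8, Dnajc9, Hspb2 and Hspb8 were higher in every Sox9 KO array (6 genes, beside 6.85% of all probe sets in that direction), and Cct4, Dnaja3 and Dnajc13 were lower (3 genes, beside 7.3%). Dnajb14 and Hspb2 were below background on all arrays.

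The width of the intervals says how large a change the 6 arrays leave possible. The 95% interval of the difference lay within a 2-fold change in either direction for 76 of 82 genes (92.7%), against 88.5% of all probe sets, and the exceptions were Hspb8, Dnajc9, Dnajb2, Dnajc12, Dnajc25 and Hspa2. Differences above 0.5 in size were found in 4 genes (4.88%, against 9.21% of all probe sets), Hspb8, Dnajc9, Dnajb2 and Dnajc12. Dnajc12, a cytosolic J-protein, read 7.21, 7.71 and 7.72 in Sox9 KO against 7.79, 7.46 and 9.0 in WT (difference -0.54), was above background on WT replicate 3 alone and differed by -0.08 when that array was left out. WT replicate 3 was also the array with the highest ER-positive luminal markers, and their part in this was not tested. Of the 82 genes, 33 were above background on every array, 22 on some and 27 on none, and a small difference in the last of these is a weak statement because signals near background are compressed. Among the 33 genes above background throughout, 32 had an interval within a 2-fold change.

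**Figure D1:**
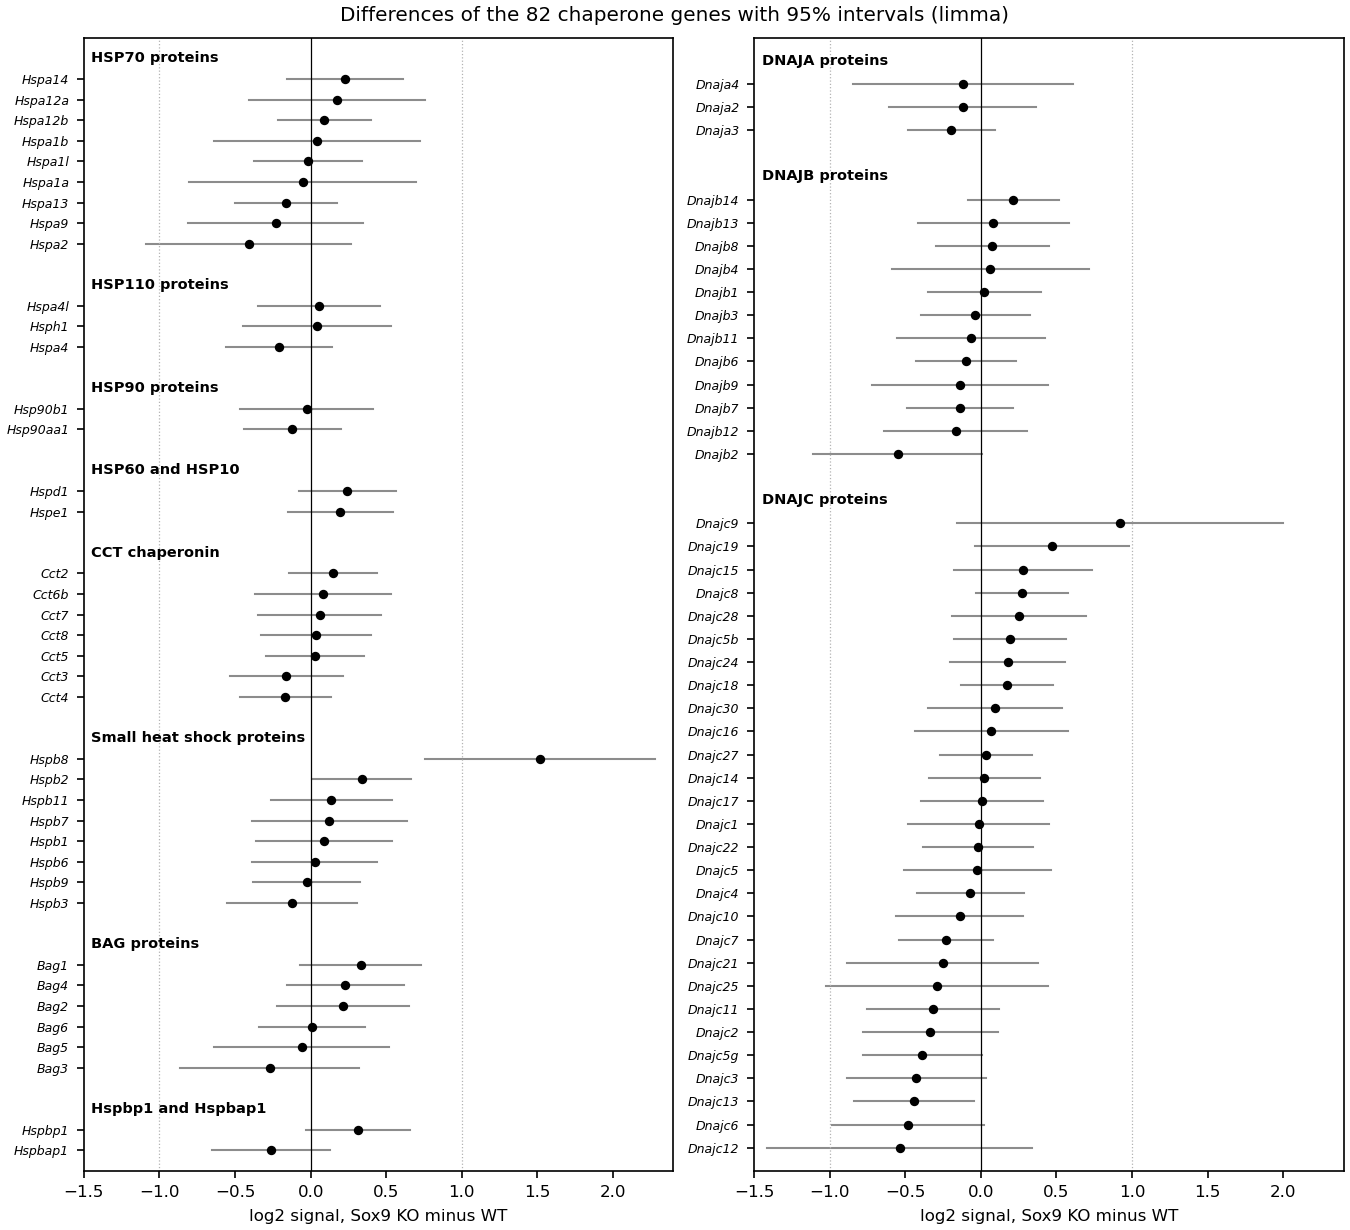
Difference in log2 signal, Sox9 KO minus WT, for each of the 82 genes by class (points), with the 95% interval of the limma fit over 3 arrays per genotype (lines) and dotted lines at a 2-fold change. Points lie on both sides of 0 in all but the HSP90, DNAJA and HSP60 and HSP10 classes. The interval of Hspb8 (0.76 to 2.28) stands clear of 0, and those of Hspb2 and Dnajc13 also leave out 0 but end close to it.

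The HSP70 genes did not separate the genotypes, with 5 lower and 4 higher around a median of -0.02, and 0 at an unadjusted p under 0.05. Hspa1a, a stress-inducible cytosolic HSP70, read 10.10, 10.92 and 11.50 in Sox9 KO against 10.80, 10.79 and 11.09 in WT (difference -0.05, SE 0.32, 95% interval -0.80 to 0.70, adjusted p = 0.979, limma). Its near-identical copy Hspa1b read 8.01, 8.74 and 9.29 in Sox9 KO against 8.63, 8.56 and 8.72 in WT (difference 0.04, SE 0.29). In both genes the lowest and the highest of the 6 signals were Sox9 KO arrays, replicate 1 and replicate 3, and the WT arrays lay between them. The spread was 0.70 in Sox9 KO and 0.17 in WT for Hspa1a and 0.64 in Sox9 KO and 0.08 in WT for Hspa1b (SD, n = 3 each), and the difference of spread was not tested. Hspa1a differed by 0.32 without Sox9 KO replicate 1 and by -0.38 without Sox9 KO replicate 3. As the copies share sequence, their agreement is no second measurement. Hspa9, the mitochondrial HSP70, read 9.32, 8.61 and 9.44 in Sox9 KO against 9.05, 9.60 and 9.41 in WT, with the groups overlapping (difference -0.23, SE 0.25). The other HSP70 genes ran between -0.41 for Hspa2, a testis-enriched HSP70 (-0.095 without Sox9 KO replicate 1), and 0.23 for Hspa14, a ribosome-associated one.

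The HSP110 genes, which encode large relatives of HSP70 that act as its exchange factors, and the HSP90 genes did not separate the genotypes either. Hsph1 read 12, 12.63 and 12.44 in Sox9 KO against 12.02, 12.39 and 12.54 in WT, a difference of 0.04 (SE 0.21) that turned negative with median centring. Hspa4 had a difference of -0.21 and Hspa4l one of 0.06. Hsp90aa1, the inducible cytosolic HSP90, read 12.36, 12.36 and 12.61 in Sox9 KO against 12.48, 12.65 and 12.56 in WT (difference -0.12, SE 0.14, 95% interval -0.44 to 0.20). Its ER counterpart Hsp90b1, also known as GRP94, read 11.57, 11.32 and 11.52 in Sox9 KO against 11.28, 11.33 and 11.88 in WT (difference -0.03). For each of these genes the Sox9 KO and WT arrays overlapped, and for the HSP90 pair the interval kept any change well within a 2-fold one.

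The small heat shock proteins held the exception. Hspb8 encodes a small heat shock protein that, bound to the co-chaperone BAG3, passes damaged proteins to autophagy. It read 7.83, 9.09 and 7.97 in Sox9 KO against 6.51, 6.82 and 7.01 in WT, and every Sox9 KO array lay above every WT array. The means were 8.30 ± 0.69 in Sox9 KO and 6.78 ± 0.25 in WT (SD, n = 3 each), a difference of 1.52 (SE 0.33, 95% interval 0.76 to 2.28, adjusted p = 0.245, limma), which does not pass the threshold. Hspb8 was above background on Sox9 KO replicates 2 and 3 and on no WT array, so its change is bounded only as at least 1.01-fold higher in Sox9 KO. This bound takes for each WT array the higher of its own signal and the lowest signal above background. It keeps Sox9 KO replicate 1 at 7.83, below the background level of 8.11 on that array, so it is no strict lower limit. Sox9 KO replicate 3 (7.97) passed the lowest background level of all arrays, 7.75. Without Sox9 KO replicate 2, the highest array, the difference was 1.12.

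Hspb2, a small heat shock protein best known from muscle, read 6.78, 6.98 and 6.66 in Sox9 KO against 6.52, 6.36 and 6.53 in WT (difference 0.34, SE 0.14, adjusted p = 0.530, limma). Its groups did not overlap, but it was below background on all arrays. Hspb1, or HSP27, an inducible small heat shock protein of epithelia, read 12.02, 12.70 and 12.58 in Sox9 KO against 12.38, 12.25 and 12.40 in WT (difference 0.09, SE 0.19), with replicate 1 of Sox9 KO as the lowest array and its other replicates as the highest. Of the 8 genes of this class, Hspb1 was the only one above background on every array. Hspb3, Hspb6, Hspb7, Hspb9 and Hspb11 were below background on all arrays and differed by -0.12 to 0.14. In the class 2 of 8 genes were lower and 6 higher, around a median of 0.11.

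Of 8 markers of basal cells, the contractile layer beneath the luminal cells, 6 had higher and 2 lower signals in Sox9 KO. At an unadjusted p under 0.05 there were 2 (25%), both higher, against 4.28% of all probe sets higher at that p. These were Krt14 (difference 2.57) and Trp63 (1.99), with adjusted p of 0.196 and 0.199 in limma. Krt5 (0.27), Acta2 (0.10), Cnn1 (0.06), Myh11 (-0.03) and Mylk (-0.06) were below background on every array. Oxtr (0.54) was above background on Sox9 KO replicate 3 alone. The median deviation of the 8 from the WT mean was 0.045, 0.52 and 0.42 on the Sox9 KO arrays against 0.26, -0.365 and 0.11 on the WT arrays, so the groups overlapped. Their mean log2 signal, 6.96, 7.33 and 7.25 in Sox9 KO against 6.79, 6.10 and 6.61 in WT, did not overlap. This mean includes Krt14 and Trp63, the 2 markers with the largest differences, and was not taken without them. The part of the basal markers in the Hspb8 difference was not tested. Over 7 fibroblast markers, 4 of which were below background on every array, the mean signal was 5.70, 5.89 and 7.45 in Sox9 KO against 6.31, 5.66 and 5.76 in WT.

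**Figure D2:**
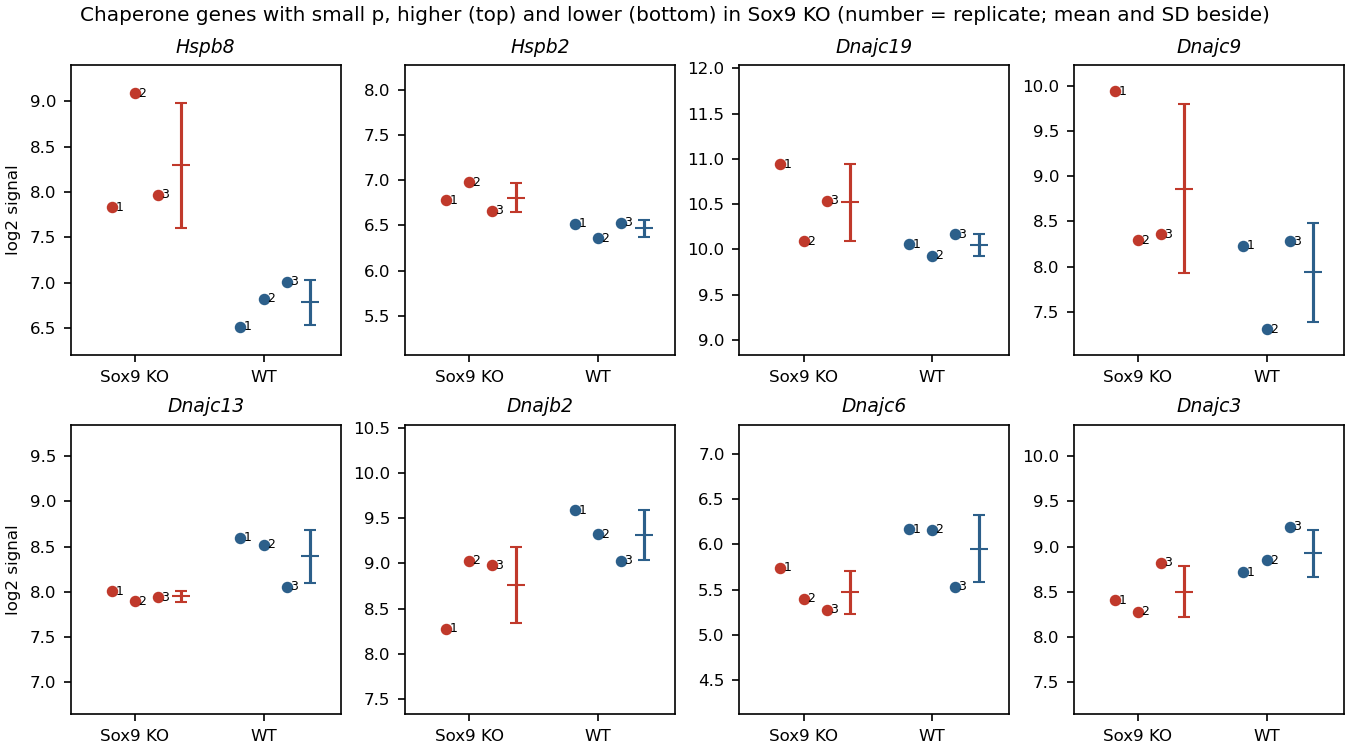
Log2 signal on each array (points, numbered by replicate) with the mean and SD over 3 arrays per genotype (bars), for 4 genes higher (top) and 4 lower (bottom) in Sox9 KO among those with the smallest p-values. Hspb8 shows the widest gap between the genotypes (means 8.30 in Sox9 KO and 6.78 in WT), while Dnajc9 rests on the 9.94 of Sox9 KO replicate 1.

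In the mitochondrial chaperonin both genes were slightly higher in Sox9 KO, within the spread between arrays. Hspd1 (HSP60) read 9.59, 9.45 and 9.76 in Sox9 KO against 9.33, 9.45 and 9.29 in WT (difference 0.24, SE 0.14, adjusted p = 0.643, limma). Hspe1 (HSP10) read 10.97, 10.91 and 11.22 in Sox9 KO against 10.66, 10.92 and 10.93 in WT (difference 0.20, SE 0.15). The groups overlapped in both genes, which share the promoter stretch shown above.

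The cytosolic CCT chaperonin, a ring of subunits that fold actin and tubulin, gave small differences. Over 7 measured subunit genes the median difference was 0.03, the range was -0.17 to 0.15, and 0 had an unadjusted p under 0.05. Cct2 read 11.90, 11.74 and 11.74 in Sox9 KO against 11.59, 11.69 and 11.65 in WT (difference 0.15, SE 0.13). Cct4 read 9.54, 9.46 and 9.30 in Sox9 KO against 9.59, 9.65 and 9.56 in WT (difference -0.17, SE 0.13). The groups did not overlap for these 2 of the 7 genes (28.6%, against 14.1% of all probe sets), and the 2 differences had opposite signs. For Cct4 the gap was only the step between 9.54 and 9.56. Cct3 differed by -0.16 and Cct7 by 0.06, while Cct5 and Cct8 both differed by 0.03 with overlapping arrays and turned negative with median centring. Cct6b, a subunit gene that is active mainly in testis, was below background on all arrays, at 3.95, 3.87 and 4.42 in Sox9 KO against 3.85, 4.25 and 3.90 in WT. The intervals of all 7 lay within a 2-fold change. Tcp1, the remaining subunit of the ring, was listed outside the 82 genes and differed by 0.03. It was measured with 8 further chaperonin partners, among them the prefoldin subunits that deliver clients to the ring. Of these 9 genes 3 were lower and 6 higher (median 0.03), and 1 had an unadjusted p under 0.05 (11.1%, against 9.26% of all probe sets). This was Pdcl (difference 0.40, below background on all arrays). Pfdn1 (0.29) and Pdcl3 (0.22) followed.

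The J-proteins were the largest class, with differences between -0.55 (Dnajb2) and 0.92 (Dnajc9). The 3 DNAJA genes were all lower (-0.12 for Dnaja2 and Dnaja4, -0.20 for Dnaja3), none at an unadjusted p under 0.05. Of 12 DNAJB genes 7 were lower and 5 higher (median -0.05), and of 28 DNAJC genes 15 were lower and 13 higher (median -0.02). Dnajb1 (HSP40), the main J-protein partner of inducible HSP70, read 11.64, 12.01 and 11.96 in Sox9 KO against 11.79, 11.71 and 12.04 in WT (difference 0.02, SE 0.16, negative with median centring). Dnajb6, whose promoter held a heat shock element, differed by -0.10.

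The J-protein genes with the lowest p-values on the lower side came from several compartments. Dnajc13 (RME-8), which acts at endosomes, read 8.01, 7.90 and 7.94 in Sox9 KO against 8.60, 8.52 and 8.06 in WT, with no overlap (difference -0.44, SE 0.17, adjusted p = 0.486, limma). The gap was the step between 8.01 and 8.06. Dnajc13 was above background on every WT array but on Sox9 KO replicate 3 alone among the Sox9 KO arrays. Dnajb2, a J-protein that binds ubiquitinated clients, read 8.28, 9.03 and 8.98 in Sox9 KO against 9.59, 9.32 and 9.03 in WT (difference -0.55, SE 0.24, adjusted p = 0.547, limma). Its groups met at 9.03, a value found once in each genotype, and the difference was -0.31 when replicate 1 of Sox9 KO was left out. Dnajc3 (p58IPK), an ER lumen J-protein, read 8.41, 8.28 and 8.82 in Sox9 KO against 8.72, 8.85 and 9.22 in WT (difference -0.43, SE 0.20). Dnajc2, which sits at the ribosome with HSP70, read 8.60, 8.23 and 8.65 in Sox9 KO against 8.90, 9.07 and 8.51 in WT (difference -0.33, SE 0.19). In both genes the arrays of the genotypes overlapped. Dnajc6 (auxilin, which strips clathrin from vesicles) and Dnajc5g, of the cysteine string protein family, differed by -0.48 and -0.39 and were below background on all arrays.

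Among the J-proteins with a higher signal, Dnajc9, a J-protein that also binds histones, read 9.94, 8.29 and 8.36 in Sox9 KO against 8.23, 7.31 and 8.28 in WT (difference 0.92, SE 0.46, 95% interval -0.15 to 2.0, adjusted p = 0.596, limma). The groups did not overlap, but the gap between Sox9 KO replicate 2 and WT replicate 3 was only the step between 8.29 and 8.28. Replicate 1 of Sox9 KO was also the array on which 15 cell cycle genes lay highest, with a median deviation from the WT mean of 3.37, 0.70 and 0.09 on the Sox9 KO arrays against 0.60, -0.30 and -0.31 on the WT arrays. Without that array Dnajc9 differed by 0.385, and by 0.61 when WT replicate 2, the lowest array, was left out. The part of the cell cycle genes in this was not tested. Dnajc19, of the mitochondrial import motor, read 10.94, 10.09 and 10.54 in Sox9 KO against 10.06, 9.93 and 10.17 in WT (difference 0.47, SE 0.22, adjusted p = 0.568, limma). It too was highest on Sox9 KO replicate 1, its groups overlapped through replicate 2, and without replicate 1 it differed by 0.26. Dnajc8, a nuclear J-protein found with splicing factors, read 9.48, 9.24 and 9.41 in Sox9 KO against 9.08, 9.18 and 9.05 in WT, with no overlap (difference 0.27, SE 0.13, adjusted p = 0.582, limma).

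The co-chaperones of HSP70 that release its client showed small differences in both directions. Of 6 BAG genes 2 were lower and 4 higher (median 0.11). Bag1, a BAG protein linked to the proteasome, read 10.87, 10.39 and 10.58 in Sox9 KO against 10.09, 10.30 and 10.46 in WT (difference 0.33, SE 0.17). Bag3, the partner of HSPB8, read 9.0, 9.94 and 9.23 in Sox9 KO against 9.39, 9.75 and 9.84 in WT (difference -0.27, SE 0.26). The fitted differences of Hspb8 (1.52) and Bag3 (-0.27) thus had opposite signs, although both genes were highest on replicate 2 among the Sox9 KO arrays, and the Bag3 value rested on single arrays (-0.075 without Sox9 KO replicate 1, -0.545 without its replicate 2). Hspbp1, an exchange factor of HSP70, read 9.80, 9.46 and 9.78 in Sox9 KO against 9.27, 9.34 and 9.49 in WT (difference 0.31, SE 0.15, adjusted p = 0.579, limma), and its groups overlapped because Sox9 KO replicate 2 lay below WT replicate 3. Hspbap1, named for its binding to HSPB1, differed by -0.26.

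The genes best known to answer to heat shock factor were described together. Of 15 listed, 12 were measured (Hspa8, Hsp90ab1 and Dnaja1 were not), 3 of them lower and 9 higher in Sox9 KO around a median of 0.05, or 0.04 without Hspb8, a version added after the data had been seen. The median of their deviations from the WT mean was -0.23, 0.14 and 0.275 on the Sox9 KO arrays against -0.07, -0.02 and 0.175 on the WT arrays. The Sox9 KO arrays thus lay on both sides of the WT arrays, and the median difference was 0.22 with replicate 1 of Sox9 KO left out and -0.045 with its replicate 2 left out. The median SD of the 12 genes was 0.30 in Sox9 KO and 0.17 in WT, against 0.21 in Sox9 KO and 0.17 in WT over all probe sets. Sox9 KO replicate 1 was the lowest of the 6 arrays for 6 of the 12 genes (50.0%), against 24.4% of the 82 genes and 21.8% of all probe sets. These 6 include the near-identical copies Hspa1a and Hspa1b, so they are not 6 separate measurements.

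**Figure D3:**
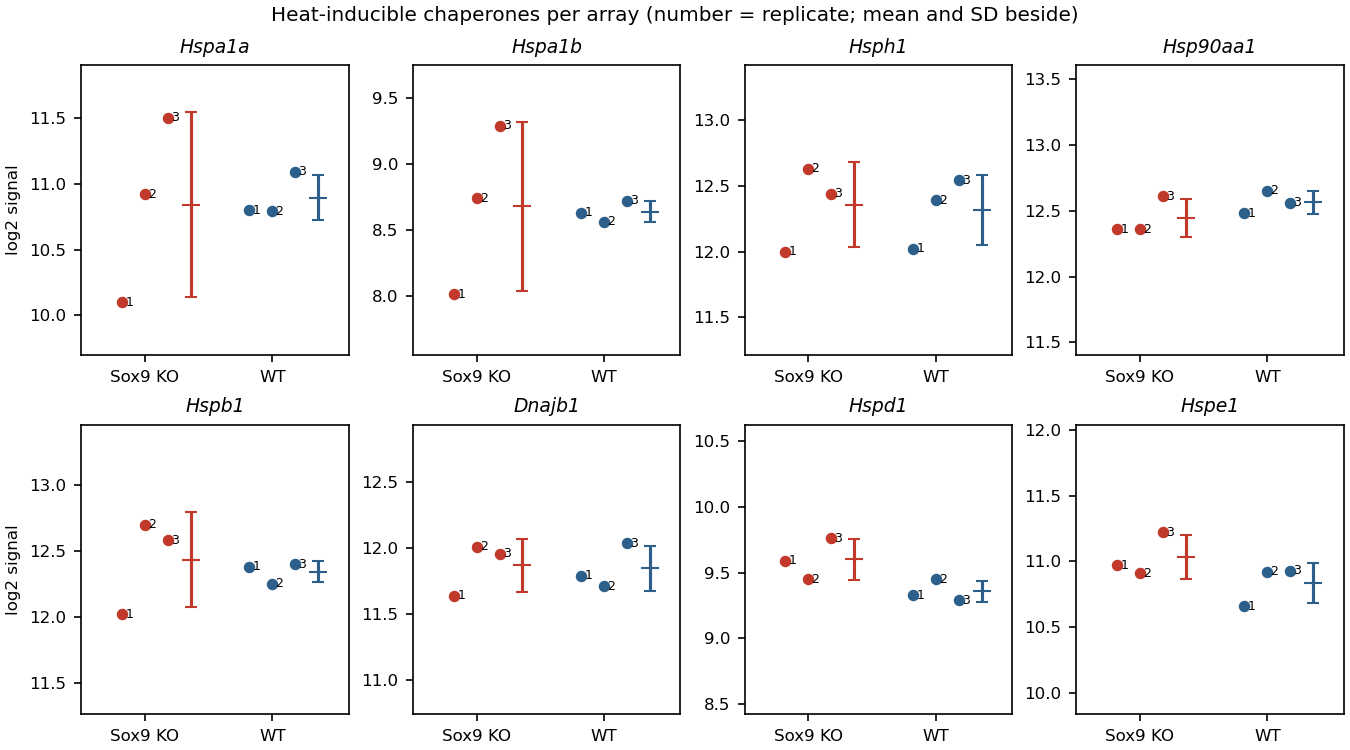
Log2 signal of 8 heat-inducible chaperone genes on each array (points, numbered by replicate) with the mean and SD over 3 arrays per genotype (bars). Hspa1a and Hspa1b spread over the widest range in Sox9 KO (10.10 to 11.50 and 8.01 to 9.29), with replicate 1 lowest and replicate 3 highest, on either side of the WT arrays.

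Immediate-early genes, a separate class that also answers to cell stress and growth signals, followed the same array more strongly. Of 20 such genes 19 were lowest on Sox9 KO replicate 1 (95%), and their median deviation from the WT mean was -1.055, -0.28 and -0.13 on the Sox9 KO arrays against -0.03, -0.06 and 0.105 on the WT arrays. In this list 17 genes were lower in Sox9 KO, and the median difference was -0.475. Of the 17, 8 had an unadjusted p under 0.05 (40% of the list), against 4.99% of all probe sets lower at that p. Among these 8, Fosl1 (difference -0.91), Zfp36 (-0.78) and Ppp1r15a (-0.77) had the smallest p-values and Fosb (-0.92) the largest difference. The 12 heat-inducible chaperones had a median difference of 0.05 in the same 6 libraries. At that p 0 of them were lower and 1 was higher, Hspb8 (8.33%, against 9.26% of all probe sets in either direction). The part of array differences in either list was not tested.

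By compartment, 9 of the 10 ER genes had lower signals in Sox9 KO (median -0.14), in a range of -0.43 (Dnajc3) to 0.21 (Dnajb14, the only one that was higher, and below background on all arrays). None had an unadjusted p under 0.05. Their median deviation was -0.26, -0.195 and 0.105 on the Sox9 KO arrays against -0.22, 0.015 and 0.165 on the WT arrays, so the groups overlapped. The ER chaperones and folding enzymes outside the 82 genes leaned the other way, with 3 of 11 lower and 8 higher, a median of 0.07 and 0 at an unadjusted p under 0.05. Among them Hspa5 (BiP), the ER form of HSP70, read 11.31, 11.57 and 11.65 in Sox9 KO against 11.52, 11.68 and 11.83 in WT (difference -0.17), Pdia6, a disulfide isomerase, differed by 0.48 and Sec63, a J-protein of the translocon, by -0.26. The 10 mitochondrial genes were 4 lower and 6 higher around a median of 0.145, and again 0 had an unadjusted p under 0.05.

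Of the genes listed here that work with chaperones but lay outside the symbol rule, Grpel2 had the smallest p-value. Grpel2, which encodes an exchange factor of mitochondrial HSP70, read 8.50, 8.23 and 8.54 in Sox9 KO against 9.19, 9.38 and 9.11 in WT. Every Sox9 KO array lay below every WT array, and the difference was -0.80 (SE 0.15, adjusted p = 0.196, limma), which does not pass the threshold. Its partner Hspa9 differed by -0.23, as given above. Grpel2 was the 1 gene of its list of 8 mitochondrial chaperones and proteases with an unadjusted p under 0.05 (12.5%, against 9.26% of all probe sets). It was also the 1 gene there without overlap (12.5%, against 14.1%). Of the 8 genes 3 were lower and 5 higher (median 0.06), with Clpx, the unfoldase of a matrix protease, at 0.36 and Afg3l2, an inner membrane protease, at -0.33.

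The cytosolic co-chaperones of HSP90 and HSP70 outside the rule were 8 lower and 7 higher of 15 measured, with a median of -0.01. Fkbp4 (FKBP52), a co-chaperone of HSP90 in steroid receptor complexes, read 9.90, 10.08 and 9.96 in Sox9 KO against 9.19, 9.49 and 9.75 in WT, with no overlap (difference 0.50, SE 0.17, adjusted p = 0.430, limma). It was the 1 gene of this list with an unadjusted p under 0.05 (6.67%, against 9.26% of all probe sets). Its relative Fkbp5 (FKBP51) went the other way, also with no overlap, at 9.31, 9.40 and 9.26 in Sox9 KO against 9.52, 9.42 and 9.70 in WT (difference -0.22). The gap for Fkbp5 was only the step between 9.40 and 9.42. Fkbp4 and Fkbp5 were the 2 of the 15 genes without overlap (13.3%, against 14.1% of all probe sets). Cdc37l1, a relative of the kinase co-chaperone CDC37, differed by -0.42 and was below background on all arrays, and St13 (HIP), which holds HSP70 in its ADP form, differed by 0.38. Of 7 further heat shock factors and regulators, 4 were lower and 3 higher with 0 at an unadjusted p under 0.05. Hsf2bp, a binding partner of HSF2, differed by -0.25, the small heat shock protein Cryab by 0.25 and the lens crystallin Cryaa by -0.19.

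**Figure D4:**
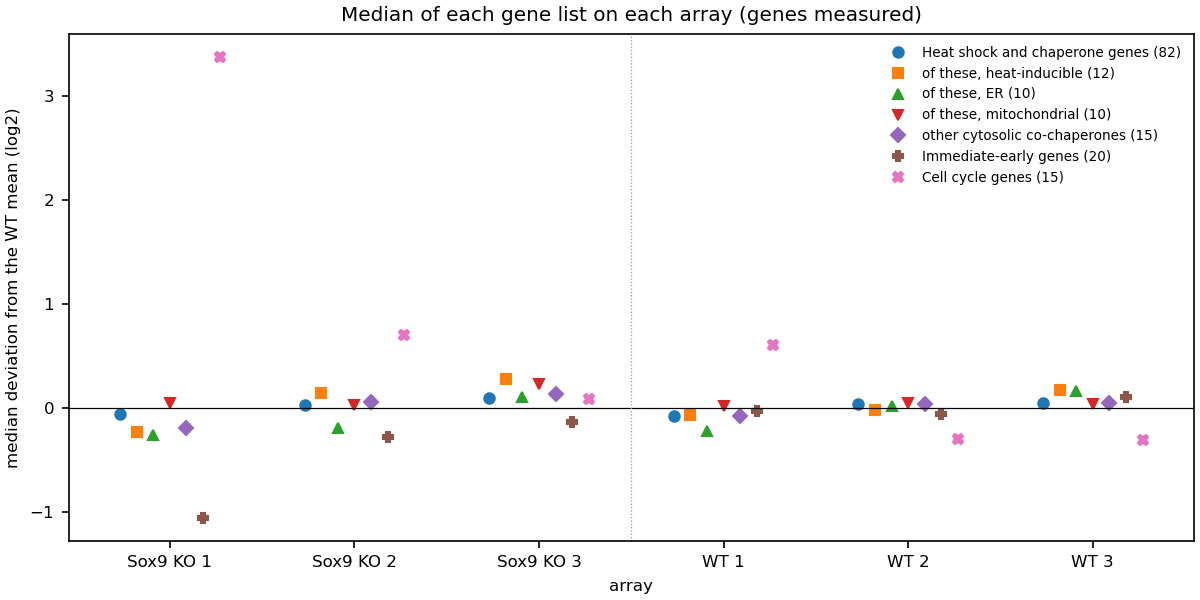
Median deviation from the WT mean, on the log2 scale, of each gene list on each of the 6 arrays (markers, with the number of genes measured in the legend). The 82 heat shock and chaperone genes stay between -0.08 and 0.095 on all arrays, while the cell cycle genes reach 3.37 and the immediate-early genes -1.055 on Sox9 KO replicate 1.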

How the data were processed

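Total RNA of sorted ER-negative luminal cells was run on Affymetrix Clariom S Pico mouse arrays, 1 per animal, 3 Sox9 KO and 3 WT. The authors processed the scans with Affymetrix Expression Console and Transcriptome Analysis Console and deposited log2 signals with 2 decimals. How background was corrected and probes were normalized and summarized is not given in the sources used here. The log2 scale was read from the values. Dim signals are compressed, so fold changes of dim genes come out too small. Groups and replicate numbers come from the labels, and the deposited table held 0 columns of other samples. Of 28846 probe sets, 6640 array controls were left out and 22206 tested, of which 19572 had 1 symbol (19505 genes) and 2634 are unnamed here.

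Sox9 KO was set against WT without covariates in a two-sided limma fit (version 3.58.1 under R 4.3.3, lmFit followed by eBayes), and p was adjusted by Benjamini-Hochberg over all probe sets tested. SE, intervals and p come from this fit. The members and lists were chosen with earlier results of these data known. Named genes were those fixed by role, the 6 in each direction with the smallest p, the 5 with the highest mean, and up to 3 by p of each other list. Genes named outside it (by class extremes, non-overlap, wide intervals or promoter matches, with Tcp1, Hspa5, Fkbp5, Fosb and the cell type markers) were chosen after their values were seen. Alternatives were quantile normalization, median centring, a filter on dim probe sets, array weights, a trended robust variance, the replicate block, the methods' t-test, named probe sets alone, the mean over probe sets, changes to the membership and each array left out.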

Additional observations from a re-analysis of the deposited data

How the results depend on the processing

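No member passed the adjusted threshold under any setting run in limma, nor with the methods' t-test. Of 246 values of named members under other scalings, filters and tests, 239 kept their sign, as did 165 of 186 with an array left out. The exceptions outside left-out arrays were Hsph1 (-0.0017), Dnajb1 (-0.018), Cct5 (-0.012) and Cct8 (-0.0083) with median centring (which moved the median of all probe sets to -0.035), and Cct6b (-0.019), Cct7 (-0.019) and Cct8 (-0.039) with array weights. The count of members at an unadjusted p under 0.05 was 6 with median centring (5 lower, 1 higher) and 5 with the methods' t-test (1 lower, 4 higher). By that t-test Sox9 (-4.18) had an adjusted p of 0.467 and 0 probe sets passed.

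The replicate block gave 7 members at an unadjusted p under 0.05 (4 lower, 3 higher), 0 probe sets past the adjusted threshold and -4.18 for Sox9 (adjusted p = 0.0505), but the samples share only numbers (correlations of same-numbered deviations 0.12, -0.03 and 0.03), so this is no paired design.

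With each array left out in turn, members at an unadjusted p under 0.05 numbered from 1 (WT replicate 2 out) to 8 (Sox9 KO replicate 2 out), and 7 with replicate 3 of either genotype out. The median difference was -0.068 (without Sox9 KO replicate 3) to 0.045 (without Sox9 KO replicate 1) over members, -0.045 (without Sox9 KO replicate 2) to 0.22 (without Sox9 KO replicate 1) over heat-inducible members, and -0.09 to 0.14 over CCT genes. Over all probe sets the unadjusted count was 1250 to 2789 and the adjusted count 0 to 20. The Sox9 difference was -4.42 to -3.86, and its adjusted p rose above the threshold without each WT array, to at most 0.147. Signs turned within -0.03 to 0.125 for Cct5, -0.09 to 0.205 for Cct6b, -0.078 to 0.19 for Cct7, -0.088 to 0.14 for Cct8, -0.047 to 0.14 for Dnajb1, -0.135 to 0.165 for Hsp90b1, -0.38 (without Sox9 KO replicate 3) to 0.32 (without Sox9 KO replicate 1) for Hspa1a, -0.26 to 0.38 for Hspa1b, -0.39 to 0.027 for Hspa9, -0.043 to 0.30 for Hspb1 and -0.11 to 0.22 for Hsph1. The named members that kept their sign were read against their value with all arrays. They moved by over 1.5 times for Dnajc2 (-0.49 to -0.20), Dnajc3 (-0.585 to -0.28, lowest in size without WT replicate 3), Bag1 (0.20 to 0.44) and Hspe1 (0.10 to 0.26). The same held for Cct2 (0.097 to 0.18), Cct3 (-0.25 to -0.02), Cct4 (-0.22 to -0.10) and Hsp90aa1 (-0.20 to -0.077), beside Dnajb2, Dnajc9, Dnajc19 and Bag3 given above. The others moved by less against that value, such as Hspd1 (0.16 to 0.32), Dnajc6 (-0.69 to -0.37) and Dnajc13 (-0.61 to -0.34). Hspb8 ran from 1.12 to 1.75, with a lowest adjusted p of 0.158. The cause of these shifts was not tested. The number of arrays limits the precision, and 27 of 82 members were not above background on any array.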
